A study of Mus musculus with 8 samples.

Results

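The IL-4-type alternative activation genes described here are 10 mouse genes (Arg1, Chil3, Retnla, Mgl2, Clec10a, Il10, Il4ra, Stat6, Il4 and Il13) of the 24028 in each deposited table, taken by gene symbol. They were read in 8 bulk tumours grown from TRAMP-C2, an established prostate adenocarcinoma cell line from a TRAMP transgenic mouse, after 1000000 cells were placed in the dorsolateral prostate of male C57BL/6 hosts. The hosts were syngeneic with the line and immune-competent. The 4 aged hosts were 20 to 24 months old and the 4 young hosts 4 months old, tumours were taken 30 to 45 days after injection, and no other treatment is labelled. Every tumour thus came from 1 cell line, and each carries a mouse number of its own, by which it is named. How the sequenced tumours were chosen from 19 aged and 20 young injected hosts is not given in the sources used here.

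In alternative activation, the cytokines IL-4 and IL-13 bind receptors that share the IL-4 receptor alpha chain, Janus kinases attached to the receptor phosphorylate STAT6, and STAT6 enters the nucleus and switches on a characteristic set of macrophage genes. In mice that set includes arginase 1, the chitinase-like lectin Chil3 (Ym1), the resistin-like protein Retnla (Fizz1) and galactose-type lectins. Arginase 1 splits arginine, which inducible nitric oxide synthase uses in classically activated macrophages. IL-10 is a separate anti-inflammatory cytokine that signals through STAT3 and is often listed with these genes. None of these genes is restricted to macrophages: Chil3 is also made by neutrophils and monocytes, and Mgl2 and Clec10a by dendritic cells.

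The libraries held 27054498 (young 37) to 35729488 (young 43) counted fragments. Of the epithelial markers listed for the injected line, Krt8 and Krt18 were present in every tumour. They stood at 21.5 to 124 CPM (counts scaled to the library total, as deposited) and 3.81 to 174 CPM. Epcam went down to 0.70 CPM in young 43. These markers do not tell the injected line from host epithelium. Krt8 was highest in young 36 (124 CPM), aged 50 (118) and young 37 (99.9), the tumours with the most gland transcripts, given next. The share of host epithelium in these values was not tested. Seminal vesicle transcripts were abundant in aged 50 and young 36, where 7 markers summed to 21200 and 36900 CPM, against at most 17.1 CPM in the other 6 tumours. Prostate secretory markers (6 genes) summed to 11100 CPM in young 37, 4840 in aged 50 and 1250 in young 36, against 5.99 to 198 CPM in the other 5. Young 37 was also the highest tumour in Il4ra and the highest young one in Arg1. Aged 50 was the highest tumour in Retnla, Mgl2, Clec10a and Il10, while young 36 was the highest in no member. The part of gland tissue in these values was not tested. Skeletal muscle markers summed to 134 CPM in aged 51 and at most 37.7 CPM elsewhere. The summed level of 12 macrophage markers was 2980 CPM in aged 46, 3340 in aged 51, 3860 in young 43 and 4870 to 6000 CPM in the other 5.

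The ligands were at the edge of detection. Il4, the T helper 2 cytokine that gives the programme its name, had 1 fragment in aged 50, 1 in young 37 and 0 in the other 6 tumours. Il13, its neighbour on chromosome 11, had 2 fragments in aged 50, 1 in aged 47, 1 in young 37 and 0 in the other 5. These counts lie under 3 fragments, the number a count of 0 allows, which is 0.084 to 0.111 CPM at these depths (counting error only), so no fold was computed and neither gene passed the filter on low counts. A host age difference in either ligand was not detectable at this depth. Other type 2 cytokines were as scarce: Il5 had at most 1 fragment per tumour, Il9 had 0 in all 8, and Il25, an epithelial inducer of type 2 cytokines, had 5 in aged 47 and at most 1 elsewhere.

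Receptor and transducer transcripts, by contrast, were plentiful and even. Il4ra, which encodes the shared alpha chain (Entrez 16190, GRCm38 chromosome 7, 125552271 to 125579474), stood at 135, 160, 140 and 108 CPM in aged 46, 47, 50 and 51. In young 36, 37, 40 and 43 it stood at 148, 181, 156 and 127 CPM. The groups overlapped, with aged 51 lowest and young 37 highest, and the log2 fold change (aged minus young, edgeR, as for all fold changes here) was -0.17 ± 0.14 (SE). Stat6 (20852, chromosome 10, 127642955 to 127660987) stood at 69.3, 92.4, 102 and 105 CPM in the aged tumours and 86.1, 77.9, 92.4 and 90.3 CPM in the young ones, in the same order. Its range among aged tumours took in all 4 young values, with a log2 fold change of 0.10 ± 0.14, and aged 46 was the lowest. In annotation, 571 of 6002 exonic bases of Il4ra overlap an antisense transcript (Gm44876) and 40 of 4402 of Stat6 overlap Nab2 on the opposite strand, so a small part of these counts is uncertain without the strand setting of the counting.

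Compared per length in the deposited FPKM (CPM per kilobase of transcript), Il4ra and Stat6 led the members with medians over 8 tumours of 24.8 and 24. Arg1 followed at 8.58, Chil3 at 5.35, Mgl2 at 3.22, Clec10a at 3.02, Retnla at 1.71 and Il10 at 0.428 FPKM, with Il4 and Il13 at a median of 0. Each of these neighbours in the order overlapped the next over the 8 tumours, except Il10 and Il4. Il4ra lay above Stat6 in 5 of 8 tumours, Chil3 above Mgl2 in 4 and Mgl2 above Clec10a in 5, so these neighbours cannot be ordered. Arg1 lay above Chil3 in 7 of 8 tumours and Retnla above Il10 in 8 of 8.

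Among the target genes, Chil3 was higher in every aged tumour than in every young one, Retnla was high in aged 47 and aged 50, and Arg1 was highest in aged 46 and aged 47, with young 37 next. The host age comparison by edgeR's quasi-likelihood test called 0 of 14575 genes at a Benjamini-Hochberg adjusted p of 0.05 (background 0%), and so 0 of the 8 members that passed the filter. At an unadjusted p of 0.05 it gave 728 genes (4.99%) and 2 members, Chil3 and Retnla, both higher in aged tumours, as were 2.34% of all genes at that p (2.66% were lower). DESeq2 called 43 of 14502 genes (0.297%) and 1 member, Chil3, while limma voom called 9 of 14575 (0.0617%) and 0 members. The members had been picked with these data known, so their counts are a description. Fitted values were higher in aged tumours for 7 of the 8 tested members, all but Il4ra, and for 55.3% of all genes. The median log2 fold change was 0.54 over the 8 and 0.031 over all genes, and 5 of the 8 members were higher without aged 50, with a median of 0.26. In bulk RNA, fewer cells of a type and less RNA per cell cannot be told apart.

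**Figure D1:**
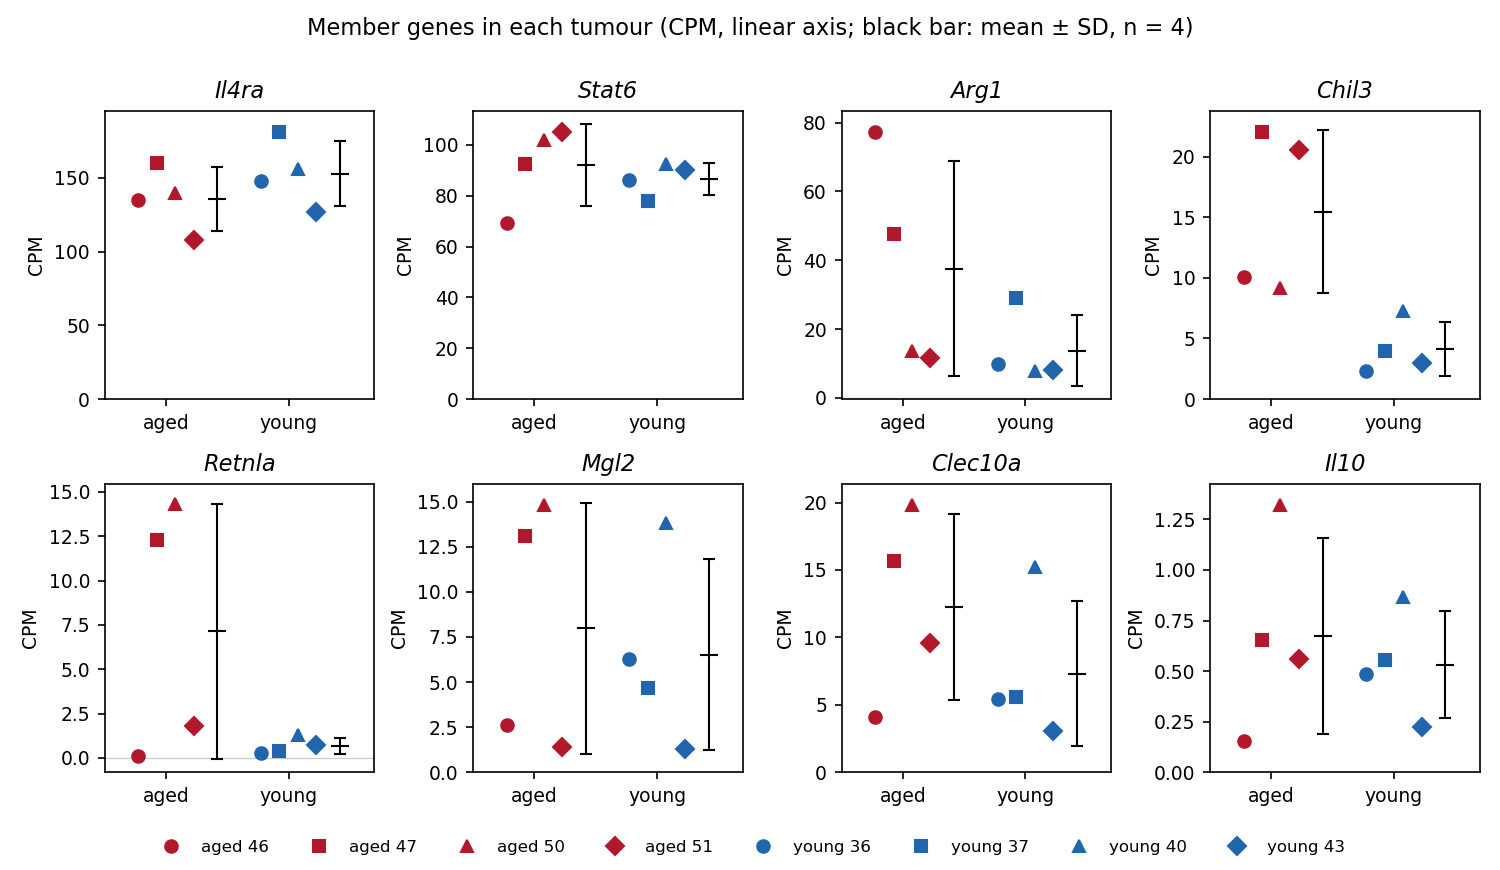
CPM (linear axis) of the 8 tested members in each tumour, aged hosts in red and young hosts in blue, 1 symbol per mouse; the black bar is the mean ± SD of 4 tumours. Il4ra and Stat6 overlap between the groups, Chil3 separates at 9.20 CPM (aged 50) against 7.28 CPM (young 40), and Retnla is high in aged 47 and aged 50 only.

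Chil3 (Entrez 12655, chromosome 3, 106147554 to 106167564) encodes Ym1, a secreted chitinase-like lectin without chitinase activity. It stood at 10.1 CPM in aged 46, 22.0 in aged 47, 9.20 in aged 50 and 20.5 in aged 51. The 4 young hosts, numbered 36, 37, 40 and 43, had 2.29, 3.95, 7.28 and 2.99 CPM. The groups did not overlap, as was so for 3.4% of all tested genes (aged higher in 1.45%, lower in 1.95%), and aged 47 and aged 51 lay well above aged 46 and aged 50. Group means were 15.4 ± 6.74 and 4.13 ± 2.21 CPM (SD, n = 4 each), and the fitted log2 fold change was 1.93 ± 0.42 (edgeR adjusted p = 0.773). DESeq2 gave 1.93 with an adjusted p of 0.00463, a call that ended when aged 47, aged 51 or young 43 was left out. Across all alternatives the Chil3 fold change stayed between 1.73 and 2.33, with adjusted p from 3.86e-05 to 0.999.

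Transcripts of other cells that make Chil3 are given beside it. The 7 neutrophil markers with a row summed to 45, 171, 51 and 29.4 CPM across aged 46, 47, 50 and 51, and to 49.1, 72.7, 66.0 and 25.7 CPM across young 36, 37, 40 and 43, so aged 51 combined high Chil3 with a low neutrophil sum, and aged 47 was high in both. The granule genes Ngp and Camp, which mark immature neutrophils, reached at most 0.421 and 0.252 CPM. Ltf, another granule gene that epithelia also make, had 12.6, 74.3, 4.52 and 0.0662 CPM in the aged tumours and 9.67, 5.51, 0.277 and 0.028 CPM in the young ones, and so made up much of the sum in aged 47. Monocyte markers (5 genes) summed to 34.8, 115, 277 and 37 CPM in aged 46, 47, 50 and 51 and to 171, 166, 183 and 67.7 CPM in young 36, 37, 40 and 43, with Fcnb at 0 in all 8. They were thus higher in 3 of the young tumours than in aged 47 and aged 51, the tumours highest in Chil3. The part of these cells in the Chil3 values was not tested.

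Chil4, the closest paralog, encodes Ym2, and its transcripts share 16.9% of the 50-base windows of Chil3 exactly. It had 12, 30, 11 and 26 fragments in aged 46, 47, 50 and 51 and 3, 4, 12 and 6 in young 36, 37, 40 and 43. This was 3.35% to 5.71% of the Chil3 fragments in every tumour, a share that is imprecise where Chil4 had as few as 3 or 4 fragments. Its log2 fold change was 1.6 ± 0.57 (edgeR adjusted p = 0.923). Whether fragments of one gene were assigned to the other was not tested. The 250 bases before the RefSeq start of each gene are shown because Chil4 stayed within that range of shares. Capitals mark the general STAT motif TTCNNNGAA (its own reverse complement, searched on both strands).
Chil3 (GRCm38.p6, minus strand, chr3:106167565-106167814): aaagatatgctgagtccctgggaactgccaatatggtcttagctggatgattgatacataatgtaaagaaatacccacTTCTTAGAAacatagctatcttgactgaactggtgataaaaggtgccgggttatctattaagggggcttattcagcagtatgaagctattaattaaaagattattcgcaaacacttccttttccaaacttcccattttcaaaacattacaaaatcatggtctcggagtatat
Chil4 (GRCm38.p6, minus strand, chr3:106219480-106219729): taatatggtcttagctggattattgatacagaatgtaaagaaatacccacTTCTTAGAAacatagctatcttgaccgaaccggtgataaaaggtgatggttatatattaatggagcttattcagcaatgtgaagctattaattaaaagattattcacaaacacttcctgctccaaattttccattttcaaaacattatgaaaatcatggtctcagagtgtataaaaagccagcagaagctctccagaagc
In a global alignment, 201 of 221 aligned bases of these stretches were identical (91%), and both hold TTCTTAGAA, beginning 172 bases before the start of Chil3 and 200 before that of Chil4. The motif occurs in 7.02% of the 32851 promoter windows of this length in the RefSeq table. A match is a description of these letters, not a binding site.

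Retnla (57262, chromosome 16, 48842609 to 48844461) encodes RELM alpha, a small secreted protein of type 2 inflammation. It had 0.0929 CPM in aged 46, 12.3 in aged 47, 14.3 in aged 50 and 1.82 in aged 51, against 0.277, 0.370, 1.32 and 0.728 CPM in young 36, 37, 40 and 43. Aged 47 and aged 50 thus stood far above all other tumours, while aged 46, with 3 fragments, was the lowest of the 8. The aged mean was 7.12 ± 7.20 CPM and the young mean 0.673 ± 0.471 CPM (SD, n = 4 each). The log2 fold change was 3.37 ± 1.16 (edgeR adjusted p = 0.923, DESeq2 adjusted p = 0.124). DESeq2 called it only when aged 46 was left out (3.79, adjusted p = 0.000432). Leaving out aged 50 gave 2.79 and aged 47 gave 2.98 by edgeR. Without both aged 50 and young 36, the tumours rich in seminal vesicle transcripts, edgeR gave 2.55, the lowest of all alternatives.

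Of its family, Retnlg was also highest in aged 47 and aged 50, over a narrower range. Retnlg, a resistin-like gene of blood neutrophils, had 0.681, 1.93, 1.96 and 0.993 CPM in the aged tumours and 0.243, 0.628, 0.866 and 0.476 CPM in the young ones, with a log2 fold change of 1.33 ± 0.48 (edgeR adjusted p = 0.923). Retn was instead highest in young 43 (3.13 CPM) and aged 51 (2.35 CPM), with 1.87 CPM in aged 47 and 2.24 in aged 50. Retnlb was at 0 in all 8 tumours, and Retnla shares 0 windows of 50 bases with Retn, Retnlb or Retnlg. Retnla is also made in adipose tissue, and 6 adipocyte markers summed to 43.3, 159, 157 and 507 CPM in aged 46, 47, 50 and 51 and to 32.8, 216, 79.5 and 206 CPM in young 36, 37, 40 and 43. Their highest value was thus in a tumour with 1.82 CPM of Retnla, and their part in the Retnla values was not tested. The stretch before the Retnla start is shown as it holds the spacing of the motif that STAT6 prefers, TTCNNNNGAA, in capitals.
Retnla (GRCm38.p6, plus strand, chr16:48842359-48842608): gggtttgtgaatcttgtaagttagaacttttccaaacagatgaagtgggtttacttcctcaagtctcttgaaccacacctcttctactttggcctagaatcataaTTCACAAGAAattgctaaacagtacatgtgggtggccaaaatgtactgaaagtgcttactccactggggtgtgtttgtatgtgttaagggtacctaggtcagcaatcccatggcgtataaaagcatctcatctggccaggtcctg
The match TTCACAAGAA begins 145 bases before the start. This motif, likewise its own reverse complement, occurs in 5.85% of the 32851 windows. Of the 10 members, 7 had a promoter in that table (Chil3, Retnla, Mgl2, Il4ra, Stat6, Il4 and Il13), in 8 windows. The longer motif was also in 1 of the 2 windows of Il4 (TTCACAGGAA, 167 bases before the start), and neither motif was in those of Mgl2, Il4ra, Stat6 and Il13. The windows of Mgl2 and Stat6 end at 70130356 and 127642985, past the gene starts given in this text, so they do not cover only sequence upstream of those starts. Arg1, Clec10a and Il10, the other 3 members, had no promoter in that table.

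Arg1 (11846, chromosome 10, 24915207 to 24927470) encodes the cytosolic arginase. It had 77.2 CPM in aged 46, 47.6 in aged 47, 13.6 in aged 50 and 11.7 in aged 51, and 9.74, 29.1, 7.73 and 8.09 CPM in young 36, 37, 40 and 43. Aged 46 and aged 47 were the highest and young 37 the next, above aged 50 and aged 51, so the groups overlapped. The log2 fold change was 1.48 ± 0.69 (edgeR adjusted p = 0.923) and went to 0.79 without aged 46 and to 2.16 without young 37. Aged 46, the highest in Arg1, was the lowest in the summed macrophage markers and in Retnla.

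Set against Nos2, whose enzyme uses the same amino acid, Arg1 was higher in most aged tumours, a difference that did not pass the test. Nos2 had 2.69, 3.54, 2.75 and 1.16 CPM in the aged and 3.29, 5.21, 4.16 and 4.2 CPM in the young tumours, with a log2 fold change of -0.73 ± 0.35 (edgeR adjusted p = 0.923). The difference Arg1 minus Nos2 in log2 CPM was 4.81, 3.73, 2.28 and 3.28 in aged 46, 47, 50 and 51, and 1.55, 2.47, 0.88 and 0.94 in young 36, 37, 40 and 43. Only young 37 lay above an aged tumour, aged 50. Means were 3.52 ± 1.05 and 1.46 ± 0.74 (SD, n = 4 each), a difference of 2.06 (exact two-sided permutation p = 0.0571 over 70 assignments, where 0.0286 is the smallest possible, and 0.114 adjusted over 2 such comparisons). With 1 tumour left out, the difference ran from 1.63 (without aged 46) to 2.48 (without aged 50).

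Mgl2 and Clec10a are neighbouring genes on chromosome 11 (70130125 to 70137542 and 70166623 to 70170836) for galactose-binding C-type lectins of macrophages and dendritic cells. Mgl2 had 2.63, 13.1, 14.8 and 1.39 CPM in aged 46, 47, 50 and 51 and 6.27, 4.69, 13.8 and 1.26 CPM in young 36, 37, 40 and 43. Clec10a had 4.06, 15.7, 19.8 and 9.56 CPM in the aged and 5.44, 5.54, 15.2 and 3.08 CPM in the young tumours. For both genes, aged 47, aged 50 and young 40 were the 3 highest tumours, so each host group held high and low tumours. The log2 fold changes were 0.27 ± 0.82 for Mgl2 and 0.75 ± 0.55 for Clec10a (edgeR adjusted p = 0.969 and 0.923). With aged 50 left out, that of Mgl2 was -0.19, and with either aged 47 or young 43 left out it was -0.07. That of Clec10a was 1.35 without young 40 and 0.44 without aged 50. The lectins parted in aged 51, where Mgl2 minus Clec10a was -2.73 in log2 CPM, against -1.25 to 0.20 in the other 7. Their difference between host groups was -0.65 (exact two-sided permutation p = 0.4, adjusted 0.4), and -0.08 without aged 51. Of the 50-base windows of Mgl2 transcripts, 12.2% also occur in Clec10a.

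Markers of some immune cell types, but not of others, were highest in the same tumours as the lectins. The 8 dendritic cell markers, of which the class II gene H2-Aa makes up most, summed to 153, 1030, 1250 and 172 CPM in aged 46, 47, 50 and 51 and 748, 327, 1100 and 366 CPM in young 36, 37, 40 and 43. Aged 47, aged 50 and young 40 were again highest, but aged 51, the fourth highest in Clec10a, had the second lowest sum. Apart from H2-Aa, the same 3 tumours led Flt3, Zbtb46, Cd209a, Clec9a and Ccr7. Young 36 instead lay above aged 47 in Itgax (21.1 against 15.2 CPM) and Xcr1 (1.53 against 1.28 CPM). Clec9a and Xcr1 were present in each tumour, down to 0.341 and 0.526 CPM, and Cd209a had 1 fragment in aged 51, under the floor, and at least 18 elsewhere. The same 3 tumours were highest for T cell markers (57.4, 95.0 and 63.8 CPM in aged 47, aged 50 and young 40) and for mast cell and basophil markers (20.1, 26.9 and 24.1 CPM). Within the last list the basophil gene Mcpt8 went another way, with 5.54 CPM in young 37 against 0.757 in aged 50 and 0.97 in young 40. Other tumours were among the 3 highest for macrophage, monocyte, neutrophil and eosinophil markers. The same held for B cell and plasma cell markers, highest in young 36 (157 CPM). The part of these cells in the lectin values was not tested.

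**Figure D2:**
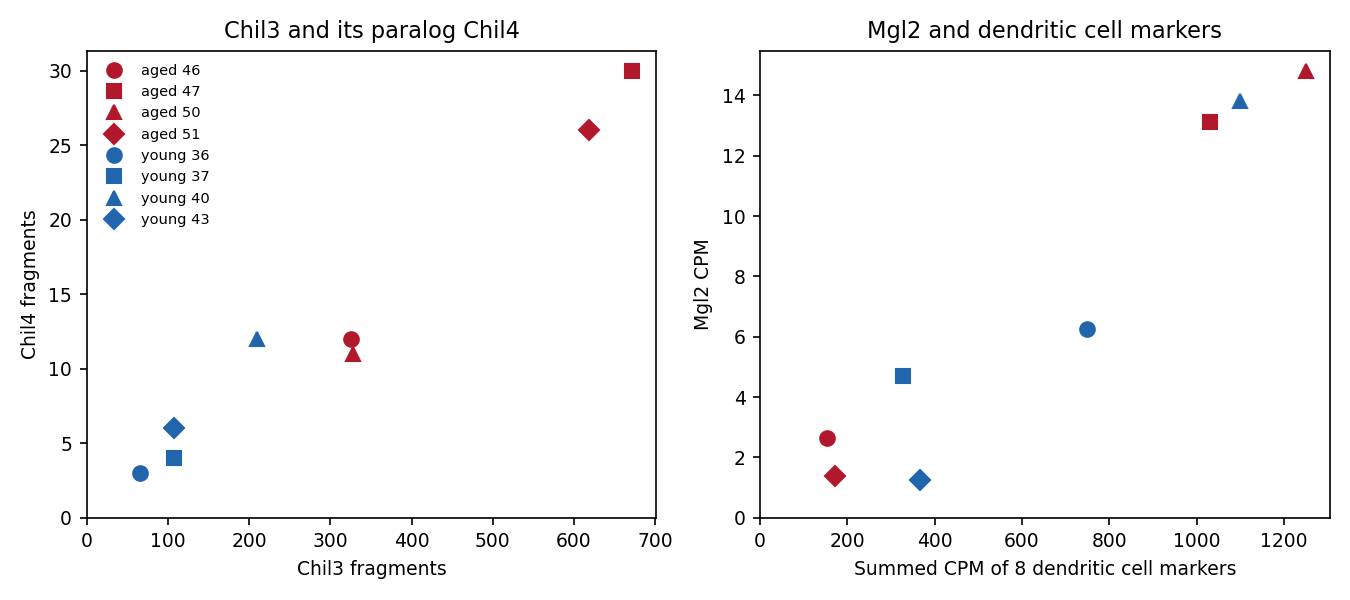
Left, Chil4 against Chil3 fragments; right, Mgl2 CPM against the summed CPM of 8 dendritic cell markers; 1 symbol per tumour, aged red and young blue, linear axes from 0. Chil4 stays at 3.35% to 5.71% of Chil3, and aged 47, aged 50 and young 40 are at the top right of the Mgl2 panel. H2-Aa makes up most of the marker sum.

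Il10 (16153, chromosome 1, 131019845 to 131024970), a cytokine of macrophages, B cells and regulatory T cells, was low throughout. It had 5, 20, 47 and 17 fragments in aged 46, 47, 50 and 51 and 14, 15, 25 and 8 in young 36, 37, 40 and 43. This is 0.155 to 1.32 CPM in aged and 0.224 to 0.866 CPM in young tumours, with both the lowest and the highest value in aged hosts. The log2 fold change was 0.34 ± 0.61 (edgeR adjusted p = 0.947) and turned to -0.19 without aged 50. T cell markers (7 genes with a row) summed to 95.0 CPM in aged 50 and 63.8 in young 40, the tumours highest in Il10, and to 15.8 in aged 46, the lowest. B cell and plasma cell markers were highest in young 36 (157 CPM), above young 40 (105) and aged 50 (97.4). Macrophage markers were highest in aged 47 (6000 CPM), against 4870 in aged 50. Both of these sums were also lowest in aged 46 (2.91 and 2980 CPM). The part of any of these cells in the Il10 values was not tested.

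With the mean of the macrophage markers of each tumour as an added term, the target genes and Il10 kept higher fitted values in aged tumours. The log2 fold change was then 2.10 ± 0.48 for Chil3, 3.55 ± 0.94 for Retnla, 1.46 ± 0.44 for Clec10a, 1.31 ± 0.61 for Mgl2, 1.17 ± 0.86 for Arg1 and 1.06 ± 0.51 for Il10. Il4ra and Stat6 had -0.07 ± 0.15 and 0.14 ± 0.15. In this fit 0 of 14575 genes passed the adjusted threshold (background 0%, smallest adjusted p = 0.43). At an unadjusted p of 0.05 it gave 10.5% of all genes and 3 members, Chil3, Retnla and Clec10a, all higher in aged tumours as were 6.12% of all genes. The median over the 8 members went from 0.54 to 1.24. Of the 12 macrophage markers, 10 had lower fitted values in aged tumours and 0 passed the adjusted threshold, with a median log2 fold change of -0.27.

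**Figure D3:**
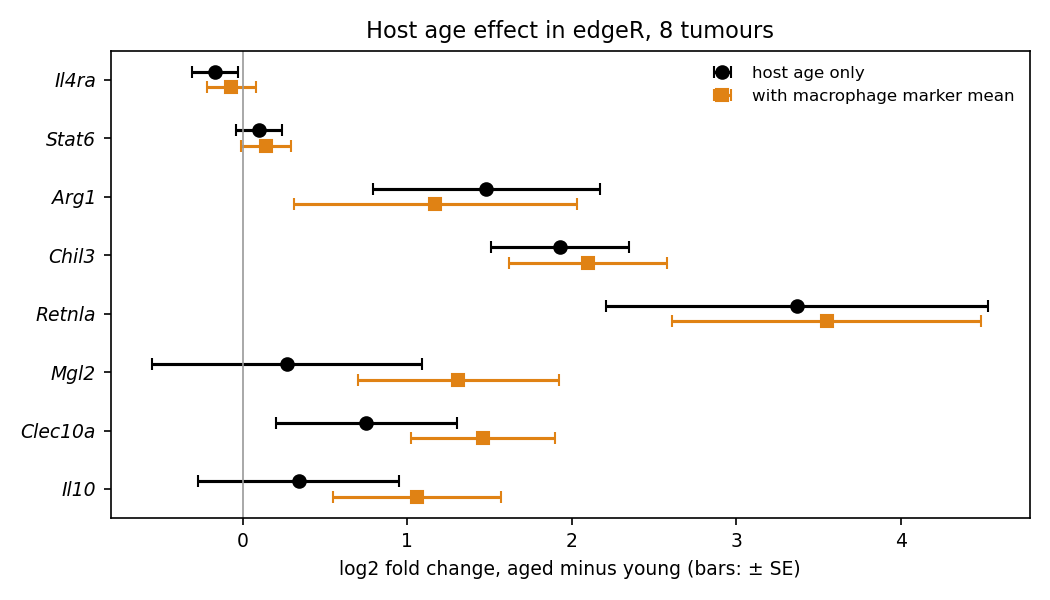
Log2 fold change (aged minus young, ± SE) of the 8 tested members in edgeR with host age only (black circles) and with the macrophage marker mean added (orange squares). Retnla and Chil3 lie farthest from 0 in both, and Mgl2 goes from 0.27 to 1.31 with the added term.

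Within host groups the members differed widely in how much they varied. The SD of log2 CPM within groups was 2.20 for Retnla (rank 133 of 14575 genes, 1 being the most variable), 1.5 for Mgl2 (rank 461), 1.15 for Arg1 (914) and 0.93 for Clec10a (1441). It was 0.89 for Il10 (rank 1554), 0.66 for Chil3 (2538), 0.20 for Il4ra (10804) and 0.19 for Stat6 (11501). The median over all tested genes was 0.30, and 4 of the 8 members were in the most variable 10% of genes. The target genes thus varied between hosts of 1 age by more than the receptor and transducer did. These ranks take no account of level, and counting error is larger at low counts, such as the 3 fragments of Retnla in aged 46.

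Across the 8 tumours Clec10a, Il10, Mgl2 and Retnla had positive r with one another, from 0.51 to 0.88, although that of Retnla and Mgl2 (0.51) was -0.09 without aged 50 and aged 47. Genes outside the members were more like each of these 4, as the ranks in the next paragraph show. All r and rho values pool both host ages without centring by group, so they include any host age difference. Of 28 pairs of members, 1 passed after Benjamini-Hochberg adjustment of the exact permutation p of Pearson's r, and 0 by Spearman's rho. This pair was Clec10a and Il10, with r = 0.88 (exact permutation p = 0.000843, adjusted 0.0236), rho = 0.93 (exact permutation p = 0.00223, adjusted 0.0625) and r = 0.76 without aged 50 and young 43, the tumours farthest from the Clec10a median. Retnla and Clec10a had r = 0.82 (exact permutation p = 0.0134, adjusted 0.188) and rho = 0.81 (exact permutation p = 0.0218, adjusted 0.152), with r = 0.62 without aged 50 and aged 47. Mgl2 and Clec10a had r = 0.75 (exact permutation p = 0.0436, adjusted 0.247) and rho = 0.83 (exact permutation p = 0.0154, adjusted 0.144), with r = 0.96 without young 43 and aged 51. Arg1 had r = -0.14 with Retnla, 0.03 with Mgl2 and 0.43 with Chil3 (exact permutation p = 0.751, 0.944 and 0.285, adjusted 0.899, 0.958 and 0.533), and rho = -0.10, 0.00 and 0.50 (exact permutation p = 0.84, 1 and 0.216, adjusted 1, 1 and 0.63). Its r with Chil3 was 0.03 without aged 46 and aged 47.

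**Figure D4:**
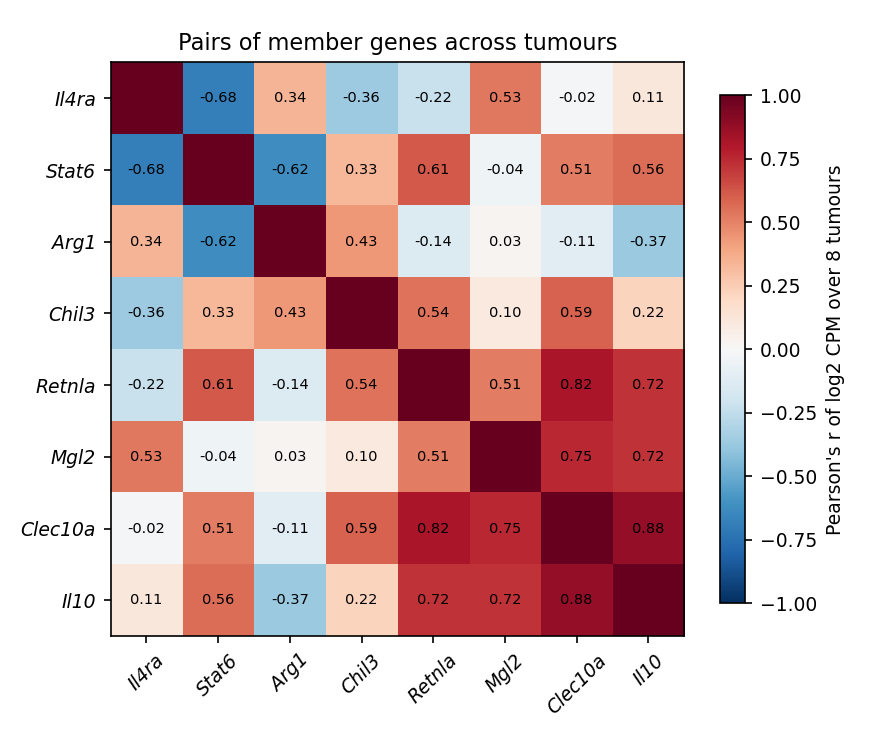
Pearson's r of log2 CPM over the 8 tumours for each pair of the 8 tested members, from blue (-1) through white (0) to red (1). Retnla, Mgl2, Clec10a and Il10 have r from 0.51 to 0.88 with one another, and Arg1 has r from -0.62 (Stat6) to 0.43 (Chil3).

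Host ages were again pooled in a search for the genes most like each member in log2 CPM over the 8 tumours. These genes were sought among the 13484 tested genes (13485 for Il10) whose log2 CPM averaged 0 or more, as a description. They were M1ap (r = 0.979), Nanog (0.960) and Clec2e (0.957) for Arg1 and Znrf2 (0.944), Gda (0.938) and Dcaf17 (0.928) for Chil3. For Retnla they were Porcn (0.967), Prdm16 (0.951) and Fgfr3 (0.949), and for Mgl2 Tnfrsf11b (0.978), Gjb5 (0.977) and Gm11710 (0.970). For Clec10a they were Lbp (0.983), Sh2d2a (0.981) and Olfml1 (0.979), and for Il10 C2 (0.992), Tmem30a (0.981) and Arhgef10l (0.975). For Il4ra they were Mrps21 (0.978), 2810428I15Rik (0.972) and Snx2 (0.962), and for Stat6 Acacb (0.963), Psmf1 (0.957) and Zfp300 (0.952). No member was among the 3 nearest genes of another, and the nearest such rank was 185, that of Clec10a for Retnla. Clec10a ranked 235 for Il10, the pair that passed above. Mgl2 ranked 1425 for Il10, Clec10a ranked 1226 for Mgl2, and Retnla ranked 3107 for Mgl2, so r values of this size were common among all genes. Il10, whose log2 CPM averaged below 0, was not among the genes ranked for the others.

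The rest of the pathway was read from lists that hold no member. Of the 11 tested genes of type 2 receptors and signalling (12 listed), 3 had higher and 8 lower fitted values in aged tumours, 0 passed the adjusted threshold, and the median log2 fold change was -0.24. Irs1, an adaptor that the IL-4 receptor shares with insulin receptors, had -0.55 ± 0.21, and the feedback inhibitor Socs1 had -0.51 ± 0.29. Ptpn6, a blood cell phosphatase, had -0.48 ± 0.37 and the kinase gene Jak3 -0.30 ± 0.26. Il13ra2, the decoy receptor of IL-13, did not pass the filter and had at most 43 fragments (aged 50).

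Of 16 tested genes that IL-4 is known to induce in macrophages, other than the members, 11 had higher and 5 lower fitted values in aged tumours, with 0 past the adjusted threshold and a median log2 fold change of 0.32. At an unadjusted p of 0.05 there were 3 of the 16, against 4.99% of all genes: the eosinophil chemokine gene Ccl24 (2.20 ± 0.70), Chil4 and the arginine transporter gene Slc7a2 (-0.80 ± 0.28). Chil4 shares exact 50-base windows with the member Chil3, as given above. Ccl24 had 17, 18, 12 and 13 fragments in aged 46, 47, 50 and 51 and 0, 4, 6 and 2 in young 36, 37, 40 and 43, without overlap between the groups, as for 3.4% of all genes. Klf4, a transcription factor that works with STAT6, had 0.61 ± 0.36. The list was thus mixed, with the mannose receptor gene Mrc1 at 0.25 ± 0.25.

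**Figure D5:**
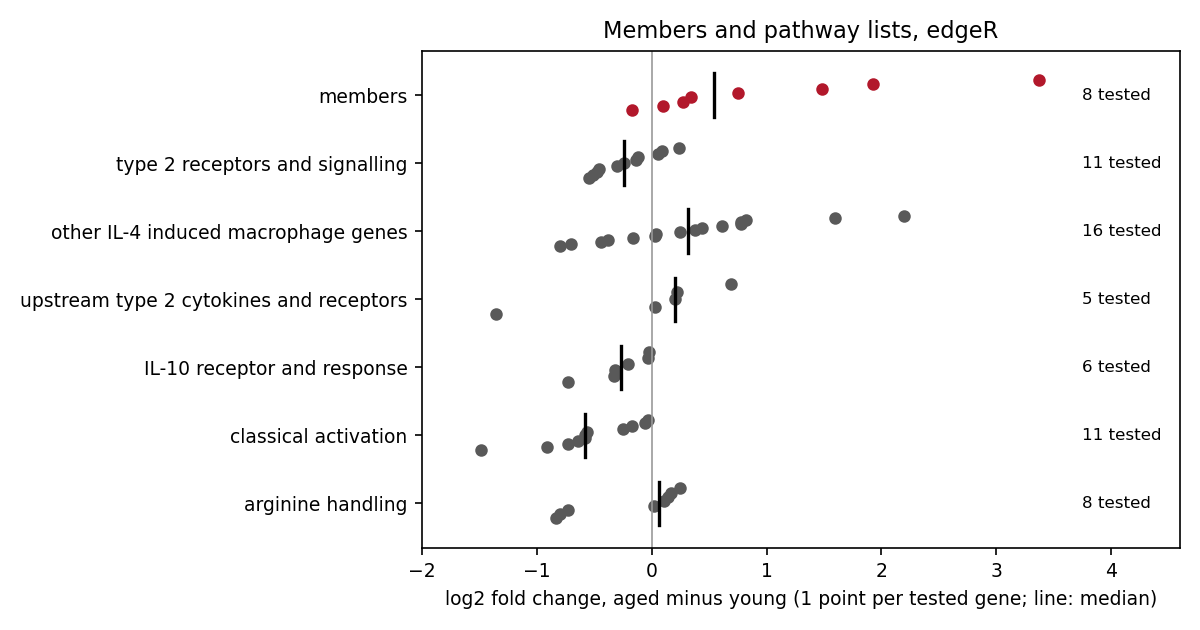
Log2 fold change (aged minus young, edgeR) of each tested member (red) and of each tested gene of 6 pathway lists (grey), with the median of each list as a black line. The 11 tested classical activation genes lie left of 0 in this fit (10 under 2 other scalings, where Ciita turns), and the members run from -0.17 to 3.37.

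Upstream of the ligands, the alarmin receptor gene Il1rl1 had the smallest unadjusted p of its list. It encodes ST2, the receptor for IL-33 on mast cells, type 2 lymphoid cells and some stromal cells, together with a soluble form. Il1rl1 had 162, 239, 55.9 and 63.2 CPM in aged 46, 47, 50 and 51 and 372, 320, 327 and 323 CPM in young 36, 37, 40 and 43. The groups did not overlap, as was so for 3.4% of all tested genes (aged lower in 1.95%). Its log2 fold change was -1.36 ± 0.43 (edgeR adjusted p = 0.923, DESeq2 adjusted p = 0.124). Its ligand gene Il33 had 88.8 CPM in aged 46 and 5.99 CPM in aged 51, with 0.20 ± 0.66, a sign that turned without aged 46 (-0.42) or young 43 (-0.06). Of the 9 genes in that list 5 were tested, 4 had higher and 1 lower fitted values, and 0 passed. Gata3, a type 2 lymphocyte factor also made by epithelia, had 0.69 ± 0.72, and Tslp 0.22 ± 0.49.

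Of the cells that can make IL-4 or IL-13, T cells left transcripts in every tumour, with Cd4 at 3.67 CPM (young 43) to 19.3 CPM (young 40). Eosinophil markers (6 genes) summed to 0.562 to 4.29 CPM in aged and 1.79 to 2.36 CPM in young tumours, and Epx, the eosinophil peroxidase gene, was at 0 in 7 tumours with 4 fragments in aged 50. Mast cell and basophil markers (9 genes) summed to 10.2 to 26.9 CPM in aged and 11.3 to 24.1 CPM in young tumours. In aged 51, which had the lowest sum, Kit (5.29 CPM) and Mcpt8 (3.57 CPM) made up most of it. There Cma1 had 2 fragments, Mcpt4 1 and Tpsab1 0, while Cpa3 had 10 and Tpsb2 14.

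Classical activation genes had lower fitted values in aged tumours for all 11 tested of 12, with 0 past the adjusted threshold and a median log2 fold change of -0.58, although Ciita turned under 2 other scalings (10 of 11 lower) and 8 were lower under voom. With the macrophage marker mean as a term, 6 of the 11 were lower and the median was -0.07. The largest sizes were in Il1b (-1.49 ± 0.66) and Cxcl10 (-0.91 ± 0.39), followed by Nos2 and Ptgs2 (-0.64 ± 0.31). Of 6 genes of the IL-10 receptor and response, all 6 had lower fitted values (5 under voom) and 0 passed. Bcl3, an IL-10-induced nuclear cofactor, had -0.73 ± 0.24, Socs3 -0.32 ± 0.20, and the receptor chains Il10ra and Il10rb -0.33 ± 0.31 and -0.21 ± 0.17. In the fit with the macrophage marker mean the last pair stood at 0.06 and 0.00. Of 8 arginine handling genes 5 had higher and 3 lower fitted values and 0 passed, with Ass1, which rebuilds arginine from citrulline, at -0.83 ± 0.40 and Odc1, which turns ornithine into putrescine, at 0.25 ± 0.17. Among paralogs of members, the lysosomal chitinase-domain gene Chid1 had -0.46 ± 0.32 and Stat5b 0.25 ± 0.20. All adjusted p-values of the list genes in this and the 3 paragraphs on the pathway before it were at least 0.923 by edgeR.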

How the data were processed

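Per the labels' protocols, Illumina TruSeq mRNA libraries were made from 1 µg of RNA of each tumour and read as 50 bp paired ends. Per the submitters' processing notes, bcl2fastq, TopHat2 2.0.12 and Picard 2.7.1 were used, and the build was GRCm38 (mm10). No label names the counting program, its annotation or its strand setting. Per the file headers, the deposited tables give a fragment count, FPM and FPKM for each of 24028 Entrez genes. The deposited FPM is a CPM, which divides the count by the sum of counts in that tumour. The authors' deposited FPKM is that CPM per kilobase of the transcript length in the table. 

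The members and gene lists were chosen with earlier results of these data known. The main test was edgeR 4.0.16 under R 4.3.3 (filterByExpr with minimum count 10 and minimum total 15, TMM factors, robust quasi-likelihood fit, host age as the only term, all 8 tumours), with Benjamini-Hochberg adjustment over 14575 genes and a threshold of 0.05. Standard errors are the fold change over the square root of F. Log2 CPM used a prior count of 2. DESeq2 1.42.0, limma 3.58.1 (voom with sample weights), other scalings and filters, a macrophage covariate and tumours left out were the alternatives; DESeq2 with each tumour left out was chosen after seeing the data. Exact permutation tests used all 70 assignments of tumours or all 40320 orders. Scripts were tested on simulated data.

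The text names all members, at most 4 genes of each pathway list by smallest unadjusted p, and the 3 genes most like each member. Mrc1, Retn and the scarce cytokines and markers were chosen after their values were seen. List symbols were matched directly or through RefSeq synonyms; Ly6g and Trbc2 had no row. The 27 symbols turned into dates were restored by Entrez number. Coordinates and promoters are RefSeq GRCm38.p6, and exon overlaps and transcripts GENCODE vM21, on the same build. Tumours are separate mice, and the p-values measure the spread between them.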

Additional observations from a re-analysis of the deposited data

Results flagged for a closer look

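In 66 groups of 4 tumours (33 member and list genes at 2 host ages), 5 held a tumour set apart from the other 3 by a gap that passed Dixon's critical value in log2 CPM, as chance does in about 1 of 20 groups (3.3 here). Stat6 in young 37 stood at 6.29, against 6.48 to 6.49 in the other young tumours. Ass1 in young 37 stood at 5.95, against 4.83 to 4.97. Il10rb in young 43 stood at 5.94, against 6.21 to 6.26. Il1rl1 in young 36 stood at 8.60, against 8.30 to 8.33, which leaves its young tumours above every aged one, as for 1.95% of all tested genes. Il33 in young 43 stood at 4.00, against 5.43 to 5.68.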

How the results depend on the processing

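No paired analysis was possible because the mouse numbers of the labels are not shared between the host groups. The edgeR alternatives called 0 genes and 0 members, while DESeq2 called 43 genes and 1 member and voom 9 genes and 0 members. DESeq2 called 99, 46, 102 and 49 genes without aged 46, 47, 50 and 51 and 31, 34, 40 and 24 without young 36, 37, 40 and 43, and 0 to 2 members. The median log2 fold change of the members went to 1.24 with the macrophage marker mean and ran from 0.26 to 1.09 with a tumour left out. Arg1 minus Nos2 ran from 1.63 to 2.48 with a tumour left out. With 1 tumour left out, edgeR gave at most 0.9 for Mgl2, 0.65 for Il10, 1.26 for Gata3, 0.57 for Il33 and 0.47 for Tslp, and each turned sign in at least 1 such fit. Mgl2 turned to -0.19 without aged 50 and young 36, the tumours with abundant seminal vesicle transcripts. It turned to -0.07 to -0.19 by edgeR without aged 47, aged 50 or young 43, and to -0.05, -0.20 and -0.07 by DESeq2 without the same. Il10 turned to -0.21 without aged 50 and young 36, -0.42 without aged 51 as well, and -0.19 by edgeR and -0.20 by DESeq2 without aged 50. Without aged 50, aged 51 and young 36 Stat6 turned to -0.07 and Tslp to -0.51; Tslp had -0.28 without aged 50 and young 36 and -0.11 without aged 50, and Gata3 -0.37 without aged 50. Under voom Il33 turned to -0.11 and Stat5b to -0.12, and Il33 had -0.42 without aged 46 and -0.06 without young 43. With the macrophage marker mean Il10ra turned to 0.06 and Il10rb to 0.00. The cause of these changes was not tested. Il10 had no value with the filter of at least 1 CPM in 4 tumours. Chil3, Retnla, Arg1, Clec10a and Il4ra kept their sign in all 27 alternatives. With 4 tumours a group, the spread between hosts limits the target genes, and depth limits Il4 and Il13.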
